A study of Mus musculus with 12 samples.

Results

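The Ms4a genes considered here are 9 members of the membrane-spanning 4-domain family that lie side by side on mouse chromosome 19, in the order Ms4a1, Ms4a7, Ms4a4a, Ms4a4c, Ms4a4b, Ms4a6c, Ms4a6b, Ms4a4d and Ms4a6d. Their chromatin was followed by ATAC-seq, in which a transposase cuts and tags open DNA, and all peaks that the deposited tables annotate to a member were taken, with no use of their values. This gave 26 of 60288 peaks in the table of untreated mice, from 11318851 to 11686193 of chromosome 19 (build mm9), and 22 of 54953 peaks in the table of mice given lipopolysaccharide (LPS), a bacterial endotoxin. In the untreated table every member had a peak, whereas Ms4a4c had none in the LPS table.

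The cells came from bone marrow (BM) chimeras on the C57BL/6J strain, labelled WT, which were irradiated with 950 cGy and given donor BM. Either 3.5 or 9 months later, an interval that the labels do not assign to single mice, the animals were left uninjected or received 2.5 mg/kg of LPS and were killed after 12 h. The text of the study gives 9 months for its ATAC-seq chimeras and for the LPS challenge. From each brain, cells bearing the CD45.1 form of the leukocyte antigen CD45 (derived from the graft) and cells bearing the CD45.2 form (host microglia, which had been irradiated with the animal) were sorted separately as CD11b+ CD45lo cells without Ly6C/G. The 12 libraries thus form 4 groups of 3, CD45.1 and CD45.2 of the untreated mice 4, 5 and 6, and CD45.1 and CD45.2 of the LPS mice 1, 2 and 3. All mice were irradiated, so that no group holds microglia of an intact brain, and the CD45.1 cells had entered the brain from the donor BM. Because each library pools sorted cells, fewer cells with an open site and less opening per cell cannot be told apart.

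Genes of the family encode proteins that cross the membrane 4 times, several of which modulate signalling by receptors at the surface of haematopoietic cells. Ms4a1 encodes CD20, the B-cell antigen, Ms4a4b is known from T cells, and Ms4a4a and Ms4a7 are known from macrophages. In the brain, Ms4a7 is used to tell border-associated and BM-derived macrophages from microglia. The Ms4a4 and Ms4a6 branches have expanded by local duplication in the mouse, so that parts of this cluster resemble each other closely.

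Among the member peaks, 4 were copies of 1 stretch of DNA, and the difference between the populations was called as changed by LPS at these 4 peaks. The stretch was found by alignment to the mm9 genome, which held 4 full copies, all inside the cluster. The first lay at chr19:11505765-11505986, upstream of Ms4a4b, the second at chr19:11539378-11539599, upstream of Ms4a6c, the third at chr19:11588098-11588307, upstream of Ms4a6b, and the fourth at chr19:11634129-11634347, downstream of Ms4a4d. Each copy lay in a peak annotated as intergenic. Their plus strands are shown because all called interactions with LPS lay in them, with capitals marking a match to the C/EBP motif TTGCNNAA.
Ms4a4b copy: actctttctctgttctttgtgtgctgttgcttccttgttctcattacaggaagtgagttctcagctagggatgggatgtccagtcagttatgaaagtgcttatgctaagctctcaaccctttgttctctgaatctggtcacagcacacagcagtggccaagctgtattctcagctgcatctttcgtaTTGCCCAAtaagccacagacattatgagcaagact
Ms4a6c copy: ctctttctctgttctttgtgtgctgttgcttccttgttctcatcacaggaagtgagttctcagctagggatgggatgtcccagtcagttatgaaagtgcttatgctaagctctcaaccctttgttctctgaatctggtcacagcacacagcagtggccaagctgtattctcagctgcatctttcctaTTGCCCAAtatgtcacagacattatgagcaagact
Ms4a6b copy: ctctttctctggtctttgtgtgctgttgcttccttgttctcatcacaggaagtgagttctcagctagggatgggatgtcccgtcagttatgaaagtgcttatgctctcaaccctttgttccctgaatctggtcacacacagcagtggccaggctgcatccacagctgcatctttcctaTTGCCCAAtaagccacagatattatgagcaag
Ms4a4d copy: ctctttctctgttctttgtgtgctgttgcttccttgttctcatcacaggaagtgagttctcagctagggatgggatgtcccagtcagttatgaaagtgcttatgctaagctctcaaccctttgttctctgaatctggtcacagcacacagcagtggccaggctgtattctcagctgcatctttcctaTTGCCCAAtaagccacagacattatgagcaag
Identity between pairs of copies ranged from 90.1% (Ms4a4b with Ms4a6b) to 97.3% (Ms4a4b with Ms4a6c), and the Ms4a6c and Ms4a4d copies shared an unbroken identical run of 159 bases. Each copy held 1 C/EBP match. How reads that fit several places were treated is not given in the sources used here, so that part of the tags of 1 copy may come from another, and the 4 peaks were also summed to 1 feature below.

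A pair of further windows is shown as single-copy peaks of the same cluster, the intronic peak of Ms4a7 at chr19:11404051-11404250 and the peak upstream of Ms4a4d at chr19:11608007-11608206, with capitals marking matches to the motifs of C/EBP or PU.1 (GAGGAAGT).
Ms4a7 intron: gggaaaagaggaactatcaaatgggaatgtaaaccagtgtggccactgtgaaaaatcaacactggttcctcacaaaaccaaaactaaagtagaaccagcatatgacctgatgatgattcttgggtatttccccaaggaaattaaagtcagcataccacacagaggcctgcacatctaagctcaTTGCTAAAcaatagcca
Ms4a4d upstream: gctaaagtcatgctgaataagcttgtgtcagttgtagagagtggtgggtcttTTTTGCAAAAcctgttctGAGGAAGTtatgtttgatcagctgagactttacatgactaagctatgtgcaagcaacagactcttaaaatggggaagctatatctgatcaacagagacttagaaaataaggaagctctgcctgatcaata
In the Ms4a7 window the capitals mark 1 C/EBP match, which lies past the end of the peak itself. In the Ms4a4d window the first run of capitals is 2 overlapping C/EBP matches and the second is the PU.1 match. Neither peak had a similar sequence elsewhere in the genome.

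Total tags ranged from 8392877.5 to 9107770 per library in the untreated table and from 2966364 to 6556594.5 in the LPS table, so that the LPS values are less precise. CD45.2 of mouse 4 had the lowest share of tags in merged peaks, 18.4%, against 26.3% to 39% in the other 11 libraries. All 10 microglial marker genes had peaks, with summed tags of 2160 to 3066 in CD45.1 and 3794 to 4146 in CD45.2 untreated, and of 925 to 1078 against 1164 to 1377 after LPS. Only 2 of the 10 were higher in CD45.2 untreated and 1 after LPS, and none was higher in CD45.1. Without Sall1 the sums overlapped, with 2137 to 2879 against 2772 to 3032 untreated and 897 to 1040.3 against 933 to 1081 after LPS. Sall1, the transcription factor that defines microglia, was higher in CD45.2 in both tables, with 111 ± 82.4 against 1042 ± 65.2 normalized tags over its untreated peaks in CD45.1 and CD45.2 (SD, n = 3). Normalized tags are tags divided by DESeq2's size factor of the library, and unless stated otherwise the factors are those of the untreated or of the LPS table alone, whose levels are therefore not on 1 scale.

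In untreated mice the Ms4a cluster was more accessible in graft-derived cells. Of the 26 member peaks, 11 had over 4-fold more tags in CD45.1 with a DESeq2 adjusted p below 0.01, the limits for a called peak, where 3.78% of all 59170 tested peaks were. The 11 include every copy of the duplicated stretch, which may share tags and are not independent sites. None was called higher in CD45.2, where 2.65% of all peaks were, and no member peak had an unadjusted p under 0.05 in that direction. The median log2 fold change (CD45.1 over CD45.2) was 2.08 over the members and 0.00 over all peaks. At 19 of the 26 peaks all 3 CD45.1 libraries lay above all 3 CD45.2 libraries, against 17.8% of all peaks. The peak caller of the study had listed 16 of the 26 in CD45.1 libraries alone, against 14.1% of all untreated peaks, and none in CD45.2 libraries alone. Without CD45.2 of mouse 5 only 6 member peaks were called, and with a filter on a mean of at least 20 tags, which 11 member peaks passed, 5 were.

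**Figure D1:**
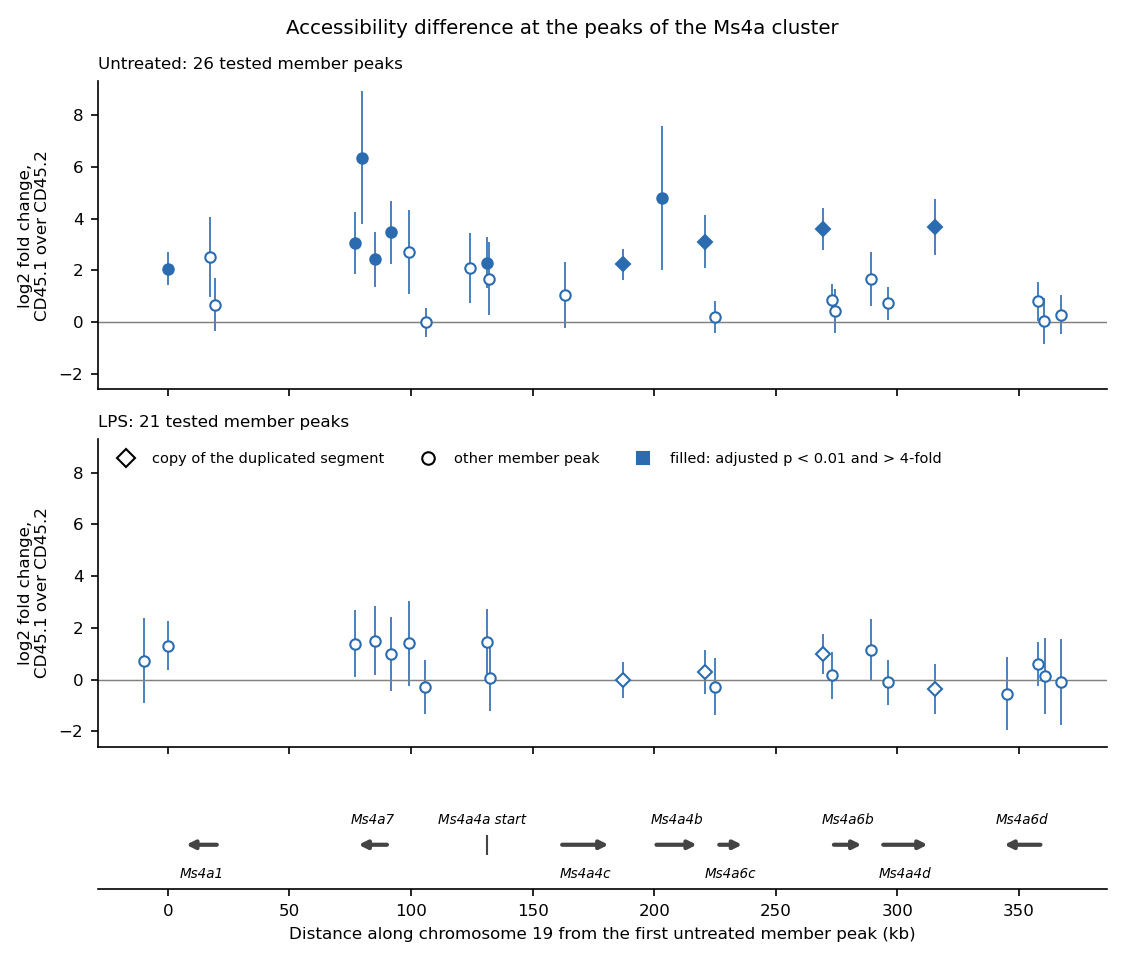
Log2 fold change of CD45.1 over CD45.2 at each tested member peak (points, with 95% intervals) against the distance along chromosome 19 in kb from the first untreated member peak, for the untreated table (top, 26 peaks) and the LPS table (middle, 21 peaks), with the genes drawn as arrows in the direction of transcription (bottom). Diamonds are the 4 copies of the duplicated stretch and filled symbols are called peaks, of which the untreated panel has 11 and the LPS panel none.

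Ms4a7, the macrophage member, had 6 untreated peaks, of which 4 were called. At its promoter (24 bp from the start site) the normalized tags were 27.5, 31.9 and 34.3 in CD45.1 of mice 4, 5 and 6 and 1.64, 2.71 and 3.25 in CD45.2. The CD45.1 libraries thus stood far above the CD45.2 libraries, with a log2 fold change of 3.47 (SE 0.619, DESeq2 adjusted p 1.09e-06). In the second intron (+5034 bp, the sequence shown above) the values were 25.7, 26.0 and 31.0 against 4.92, 3.48 and 7.30 (2.42, SE 0.54, adjusted p 0.000163). At the 3' end of the gene, in the last exon (+13433 bp), they were 23.3, 30.1 and 28.9 against 4.92, 3.096 and 2.43 (3.07, SE 0.61, adjusted p 1.64e-05). Both sites therefore showed the same order of populations as the promoter, without overlap. In the fifth intron (+10461 bp) CD45.1 had 12.6, 16.4 and 16.3 normalized tags, whereas CD45.2 had 0, 0 and 0.406. With 3 tags per library as the floor, CD45.1 was at least 4.69-fold higher there (adjusted p 3.6e-05). The peak at −7156 bp, upstream of the gene, missed the threshold, with 12.8 ± 5.89 against 1.75 ± 0.657 normalized tags (95% interval of the log2 fold change 1.08 to 4.34, adjusted p 0.0111), each CD45.2 library being under 3 tags.

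The strongest Ms4a7 peak behaved differently. At −14166 bp, CD45.1 had 46.2, 55.7 and 39.8 normalized tags and CD45.2 had 42.6, 55.7 and 43.8, a log2 fold change of −0.02 (95% interval −0.57 to 0.54). The populations overlapped fully. Its sequence was found at 457 other places in the genome, unlike that of the other 5 peaks, which had no similar sequence elsewhere. With that peak left out, an alternative chosen after seeing the data, the summed tags of Ms4a7 differed by a log2 fold change of 3.13 (SE 0.313, adjusted p 2.37e-21) in place of 1.38 with it.

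**Figure D2:**
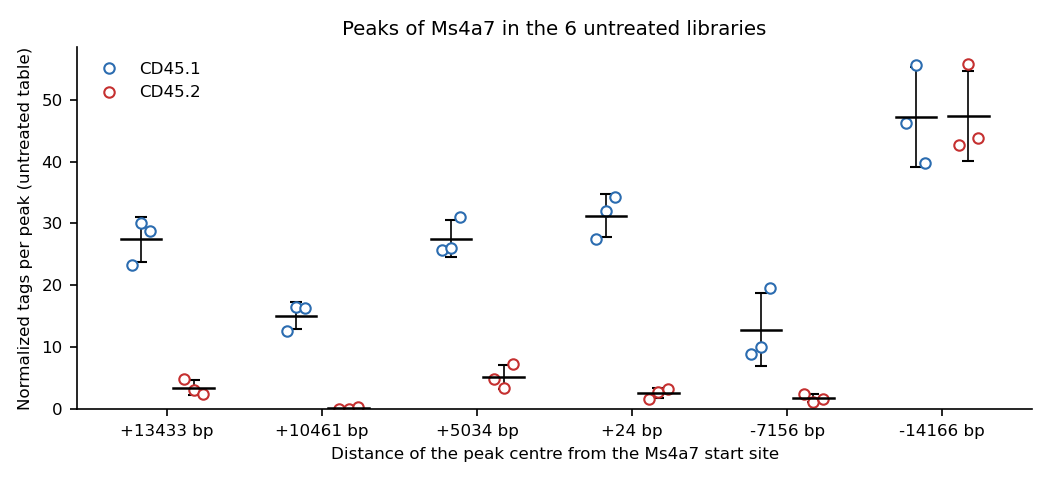
Normalized tags (untreated table) of each Ms4a7 peak in the 6 untreated libraries, by the distance of the peak from the start site in bp. Points are libraries, black lines the mean and bars the SD of 3 libraries; blue (CD45.1) lies above red (CD45.2) at 5 of the 6 peaks and overlaps it at the peak at −14166 bp.

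Ms4a1, which encodes CD20, had 3 untreated peaks, and the strongest lay 21726 bp from its start site, beyond the gene's 3' end and in the first intron of a non-coding RefSeq transcript. Normalized tags there were 57.4, 76.2 and 82.2 in CD45.1 and 15.6, 13.9 and 21.1 in CD45.2 (2.07, SE 0.324, DESeq2 adjusted p 1.64e-08). This was the largest CD45.2 level among the single-copy peaks that were called. The remaining peaks lay in the first intron of Ms4a1 and missed the threshold, at +4460 bp with 13.7 ± 4.51 against 2.70 ± 2.66 (2.50, adjusted p 0.0143) and at +2449 bp with 17.9 ± 8.87 against 11.6 ± 2.12 (0.67, adjusted p 0.518). No peak was annotated to the Ms4a1 promoter in either table. Among the B-cell marker genes, Cd79a and Pax5 had no peak in either table. The summed tags of the 4 B-cell markers with a peak ran from 138 to 203 in CD45.1 and from 250.2 to 269 in CD45.2, and Ebf1 and Blk were higher in CD45.2.

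Ms4a4a, a macrophage gene, had its called peak at the promoter (−40 bp), with 28.5, 28.8 and 28.9 normalized tags in CD45.1 and 5.74, 4.64 and 6.90 in CD45.2 (2.30, SE 0.51, DESeq2 adjusted p 0.000146). The groups did not overlap and the CD45.1 libraries were nearly equal. Its peaks at −6997 bp (2.09, adjusted p 0.0211) and in the first intron (+1112 bp, 1.68, adjusted p 0.106) missed the threshold. Ms4a4c had a single peak, at its promoter, with 6.53, 9.13 and 25.05 against 8.19, 6.19 and 5.68. Here the populations overlapped, and the higher CD45.1 mean came from mouse 6 (1.04, 95% interval −0.24 to 2.31, adjusted p 0.361).

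The 4 copies of the duplicated stretch were all called. At the copy upstream of Ms4a4b (−12175 bp), normalized tags were 84.0, 84.0 and 86.6 in CD45.1 and 22.1, 12.8 and 21.5 in CD45.2 (2.23, SE 0.303, DESeq2 adjusted p 5.42e-11). At the copy upstream of Ms4a6c (−4311 bp) they were 41.0, 28.3 and 51.7 against 1.64, 6.19 and 4.87 (3.11, SE 0.525, adjusted p 2.12e-07). The Ms4a4b copy was thus the one with the most tags in both populations. At the copy upstream of Ms4a6b (−4828 bp) the values were 68.1, 71.6 and 81.1 against 5.74, 5.42 and 6.90 (3.59, SE 0.42, adjusted p 8.17e-15). At the copy behind Ms4a4d (+22950 bp) they were 40.1, 38.8 and 55.5 against 3.28, 1.55 and 5.68 (3.66, SE 0.556, adjusted p 5.32e-09). No CD45.2 library reached the lowest CD45.1 library at any copy. Summed to 1 feature, the copies differed by a log2 fold change of 2.90 (95% interval 2.48 to 3.32, adjusted p 6.86e-37).

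Promoters of the Ms4a6 genes contrasted with these upstream sites. The Ms4a6c promoter (+49 bp) had 31.2, 42.9 and 53.4 normalized tags in CD45.1 and 32.0, 44.1 and 32.5 in CD45.2 (0.21, 95% interval −0.41 to 0.82). At the Ms4a6b promoter (−20 bp) the values were 16.8, 22.8 and 23.96 against 14.7, 15.1 and 15.8 (0.44, 95% interval −0.41 to 1.29). The Ms4a6c promoter overlapped between the populations and the Ms4a6b promoter did not, but both differed far less than the copies upstream of the same genes. Both promoters resemble each other as well, with 90.7% identity over the Ms4a6c peak. A further Ms4a6b peak at −992 bp had 53.2, 46.1 and 53.9 against 23.8, 28.6 and 31.2, which did not overlap but missed the threshold (0.87, SE 0.305, adjusted p 0.0334).

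For Ms4a6d, no peak was called. Its promoter (+33 bp) had 19.6, 16.4 and 14.2 against 18.03, 15.9 and 15.8 normalized tags (0.03, 95% interval −0.85 to 0.91). Its strongest peak, in the second intron (+2598 bp), had 31.7, 25.6 and 41.4 against 23.8, 22.4 and 12.2 (0.80, adjusted p 0.185), and the peak at −6830 bp had 25.8 ± 3.69 against 21.8 ± 1.84. Only the second-intron peak did not overlap between the populations, and its interval reached 1.57 on the log2 scale. For Ms4a4d, the peaks in the first intron (+3487 bp) and at −3232 bp missed the threshold. The intronic peak had 46.6, 47.5 and 57.7 against 17.2, 40.6 and 30.8 (0.73, adjusted p 0.122). The upstream peak, whose sequence is shown above, had 20.99, 17.8 and 28.3 against 6.55, 5.42 and 8.93 (1.67, SE 0.525, adjusted p 0.0137). For Ms4a4b, a second peak in the first intron (+3825 bp) was called on few tags, 2.80, 6.85 and 20.7 against 1.64, 0 and 0 (fitted log2 fold change 4.81, 95% interval 2.03 to 7.59, adjusted p 0.0074), a value that rests on 1 CD45.2 tag. The highest CD45.1 value, from mouse 6, set its mean, and the call was lost with the mouse as a block (adjusted p 0.0228). The sequence of this Ms4a4b peak was also found at 3 other places in the genome, the best match with 95.2% identity.

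After LPS no single peak of the cluster was called different between the populations. Of the 21 member peaks tested, 0 were called in either direction with DESeq2 and 0 with edgeR, while 1.78% of all 49180 tested peaks were called higher in CD45.1 and 1.19% higher in CD45.2. An unadjusted p under 0.05 was reached at 5 member peaks, all higher in CD45.1, and at 6 the CD45.1 libraries lay wholly above the CD45.2 libraries, against 14.1% of all peaks. The median log2 fold change over the members was 0.28, against −0.01 over all peaks. Only in CD45.1 libraries had the peak caller listed 4 of the 22 peaks, near the 18.3% of all LPS peaks. A peak of Ms4a4a at −6917 bp had too few tags to be tested. Scaling to total tags moved the median of all LPS peaks by about 0.14 towards CD45.1 and still gave 0 calls.

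The Ms4a7 promoter in LPS mice (−7 bp) had 11.3, 9.13 and 5.19 normalized tags in CD45.1 and 5.25, 3.05 and 5.05 in CD45.2 (0.98, 95% interval −0.44 to 2.40, DESeq2 adjusted p 0.601). The populations overlapped there, since CD45.1 of mouse 3 fell between the CD45.2 libraries. In the second intron of Ms4a7 the values were 17.4, 9.13 and 11.8 against 5.25, 1.31 and 6.53 (1.51, adjusted p 0.22), and in the last exon 16.2, 15.7 and 7.08 against 3.50, 3.49 and 7.42 (1.39, adjusted p 0.265). The peak in the repeated sequence upstream again overlapped, with 12.9, 13.7 and 7.08 against 10.5, 15.3 and 13.7. With it left out, the summed Ms4a7 tags were higher in CD45.1 (1.34, 95% interval 0.56 to 2.13, adjusted p 0.0158). At the Ms4a1 peak behind the gene (+21701 bp) the values were 28.3, 20.2 and 21.2 against 7.01, 9.59 and 10.4 (1.31, SE 0.479, adjusted p 0.0792). At the Ms4a4a promoter they were 19.4, 8.48 and 12.7 against 4.38, 7.41 and 4.16 (1.46, SE 0.652, adjusted p 0.209). At these Ms4a1 and Ms4a4a sites every CD45.1 library lay above every CD45.2 library, but neither passed the threshold.

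At 3 of the 4 copies of the duplicated stretch the tags of both populations overlapped after LPS. The Ms4a4b copy had 36.8, 24.8 and 26.4 normalized tags in CD45.1 and 29.8, 30.5 and 30.0 in CD45.2 (−0.01, 95% interval −0.70 to 0.68). The Ms4a6c copy had 24.3, 23.5 and 15.6 against 13.1, 17.01 and 18.9997 (0.28, 95% interval −0.57 to 1.13). The Ms4a4d copy had 13.7, 23.5 and 7.08 against 14.9, 18.3 and 21.97 (−0.35, 95% interval −1.31 to 0.61). The Ms4a6b copy did not overlap, with 33.6, 35.2 and 26.9 against 14.01, 21.4 and 13.1 (0.99, SE 0.399, DESeq2 adjusted p 0.139). Summed to 1 feature, the difference was 0.24 (95% interval −0.21 to 0.69, adjusted p 0.729), which excludes the untreated value of 2.90.

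Among the remaining peaks, the Ms4a6c promoter had 14.2, 5.22 and 11.8 against 18.4, 10.5 and 12.2 normalized tags, and the Ms4a6d promoter had 7.28, 5.87 and 5.66 against 3.50, 5.67 and 6.83. Both overlapped. The Ms4a6b peak at −986 bp had 19.002, 22.8 and 12.3 against 14.01, 13.1 and 19.9. In the first intron of Ms4a4d the values were 16.6, 16.96 and 17.9 against 9.63, 22.7 and 19.6. In the second intron of Ms4a6d, its strongest site, they were 24.7, 23.5 and 23.1 against 11.4, 14.4 and 19.6, without overlap (0.61, 95% interval −0.24 to 1.46). The Ms4a4d peak at −3279 bp, which overlaps the upstream window shown above, had 12.5, 11.7 and 15.6 against 3.50, 6.54 and 6.53, also without overlap (1.154, 95% interval −0.04 to 2.35). The other 5 tested peaks, which were weak, overlapped. They were Ms4a7 at −7170 bp (9.12 ± 3.33 against 2.96 ± 3.71), Ms4a1 at +31722 bp (6.71 ± 3.79 against 4.01 ± 1.33), the first intron of Ms4a4a (8.72 ± 2.64 against 7.69 ± 3.12) and Ms4a6d at +15415 bp (5.77 ± 2.25 against 7.48 ± 4.21) and −6853 bp (5.38 ± 4.25 against 5.63 ± 2.11). Log2 fold changes over all tested member peaks ran from −0.54 to 1.51.

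To ask whether LPS changed the difference between the populations, peaks of both tables were matched one to one by at least 50% reciprocal overlap and fitted in 1 model of 12 libraries. Of the members, 19 peaks had a partner, while 7 untreated and 3 LPS peaks had none. DESeq2 gave no adjusted p of the interaction for 2 of the 19, the Ms4a7 peak at −7156 bp and the first intron of Ms4a4a, which leaves 17. The interaction of population and treatment passed a DESeq2 adjusted p of 0.05 at 4 of these 17, and edgeR also called 4. All were negative, meaning a smaller excess of CD45.1 after LPS. Of all 39235 tested matched peaks, counting those without an adjusted p, 0.224% passed with this sign (DESeq2). The 4 were exactly the copies of the duplicated stretch, so that they count as 1 sequence rather than as independent sites. For the Ms4a4d copy the interaction was −4.00 (95% interval −5.34 to −2.67, adjusted p 3.95e-05). It was −2.20 for the Ms4a4b copy (−2.998 to −1.39, adjusted p 0.000207), −2.57 for the Ms4a6b copy (−3.59 to −1.54, adjusted p 0.00103) and −2.79 for the Ms4a6c copy (−3.99 to −1.58, adjusted p 0.00429). With the mouse as a block, 3 were called and the Ms4a6c copy was not (adjusted p 0.0696). Without CD45.2 of mouse 6, 2 were called, because DESeq2 gave no adjusted p for the Ms4a6c and Ms4a4d copies.

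With LPS the copies gained tags in the host cells. On the scale of the 12 libraries, the summed copies had 156, 149 and 181 normalized tags in untreated CD45.1 and 157, 159 and 113 in CD45.1 after LPS. In CD45.2 they had 21.8, 17.7 and 26.4 untreated and 103, 126 and 124 after LPS. Every CD45.2 library after LPS thus lay above every untreated one, whereas the CD45.1 libraries overlapped. The log2 fold change (LPS over untreated) was 2.44 in CD45.2 (95% interval 1.99 to 2.89, DESeq2 adjusted p 2.58e-23) and −0.18 in CD45.1 (−0.54 to 0.17, adjusted p 0.506). The interaction of the summed copies was −2.63 (−3.20 to −2.05, adjusted p 9.07e-15), and between −2.82 and −2.47 when any 1 library was left out. Of the tags in the 19 matched member peaks, the copies held 8.96% to 13.8% in untreated CD45.2 and 34.7% to 40.9% in CD45.2 after LPS, against 31.4% to 33.9% and 30.3% to 37.2% in CD45.1. Treatment and table go together, so a difference between the builds of the tables and LPS cannot be told apart at a single peak, while the interaction compares populations within each table.

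**Figure D3:**
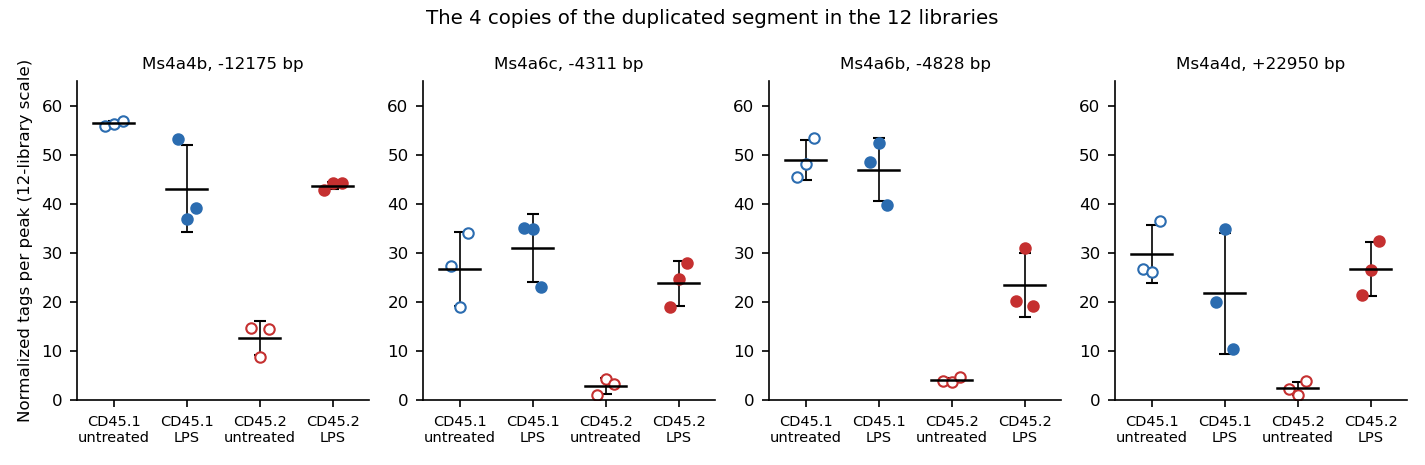
Normalized tags (12-library scale) at each copy of the duplicated stretch, titled by gene and distance from its start site, in the 4 groups. Points are libraries (open untreated, filled LPS), black lines the mean and bars the SD of 3 libraries; in all 4 panels untreated CD45.2 lies below the other 3 groups.

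Each copy alone also rose in CD45.2. In CD45.2, the Ms4a4b copy rose from 14.7, 8.70 and 14.6 to 42.9, 44.2 and 44.2 normalized tags on the 12-library scale (1.84, SE 0.313, DESeq2 adjusted p 2.5e-07). The Ms4a6c copy rose from 1.09, 4.22 and 3.30 to 18.9, 24.6 and 28.0 (2.99, SE 0.505, adjusted p 1.9e-07). Neither site overlapped between treatments. The Ms4a6b copy rose from 3.81, 3.69 and 4.67 to 20.2, 31.0 and 19.3 (2.51, SE 0.444, adjusted p 7.9e-07). The Ms4a4d copy rose from 2.18, 1.05 and 3.85 to 21.4, 26.5 and 32.4 (3.53, SE 0.561, adjusted p 2.29e-08). In CD45.1 the same copies changed by −0.36, 0.20, −0.06 and −0.48, none past the threshold. At the Ms4a4b copy every CD45.1 library after LPS lay below every untreated one, 53.3, 36.9 and 39.2 against 56.0, 56.3 and 57.0. The CD45.2 levels after LPS reached those of CD45.1 after LPS at the Ms4a4b copy, 43.8 ± 0.769 against 43.1 ± 8.89. They stayed below them at the Ms4a6b copy, 23.5 ± 6.51 against 47.0 ± 6.46.

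Over all 19 matched member peaks, LPS raised 6 in CD45.2 past the limits of 2-fold and a DESeq2 adjusted p of 0.05, where 7.68% of all matched peaks rose, and lowered 0, where 3.70% fell. In CD45.1 it raised 0, where 6.77% of all peaks rose, and lowered 0, where 4.98% fell, with edgeR giving 0 in both directions and 3 member peaks at an unadjusted p under 0.05, all with fewer tags after LPS. These were the repeated-sequence peak of Ms4a7, the Ms4a6c promoter and the Ms4a6d peak at −6830 bp. All 3 CD45.2 LPS libraries lay above all 3 untreated ones at 9 member peaks, against 19.7% of all peaks, and those of CD45.1 at 1, against 20.6%. The median log2 fold change was 0.90 in CD45.2 and −0.30 in CD45.1 over the members, and −0.01 in CD45.2 and near 0 in CD45.1 over all matched peaks. Beside the 4 copies, the sites that rose in CD45.2 were the first intron of Ms4a4a (+1112 bp), from 6.53, 1.05 and 2.20 to 8.83, 8.21 and 16.6 normalized tags (2.09, SE 0.663, DESeq2 adjusted p 0.0143), and the last exon of Ms4a7 (+13433 bp), from 3.26, 2.11 and 1.65 to 5.04, 5.05 and 10.9 (1.77, SE 0.671, adjusted p 0.0498). The Ms4a7 promoter missed the threshold, with 1.09, 1.84 and 2.20 against 7.57, 4.42 and 7.44 (1.75, 95% interval 0.37 to 3.12, adjusted p 0.0687). Its interaction was −2.45 (−4.10 to −0.80, adjusted p 0.383). Outside the copies, 0 of the 13 matched member peaks with an adjusted p had a called interaction (DESeq2), and 2 had an unadjusted p under 0.05. The values of all 15 ran from −2.45 to 0.11 with a median of −0.73 and 14 below 0. Over all matched peaks the median was −0.02.

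**Figure D4:**
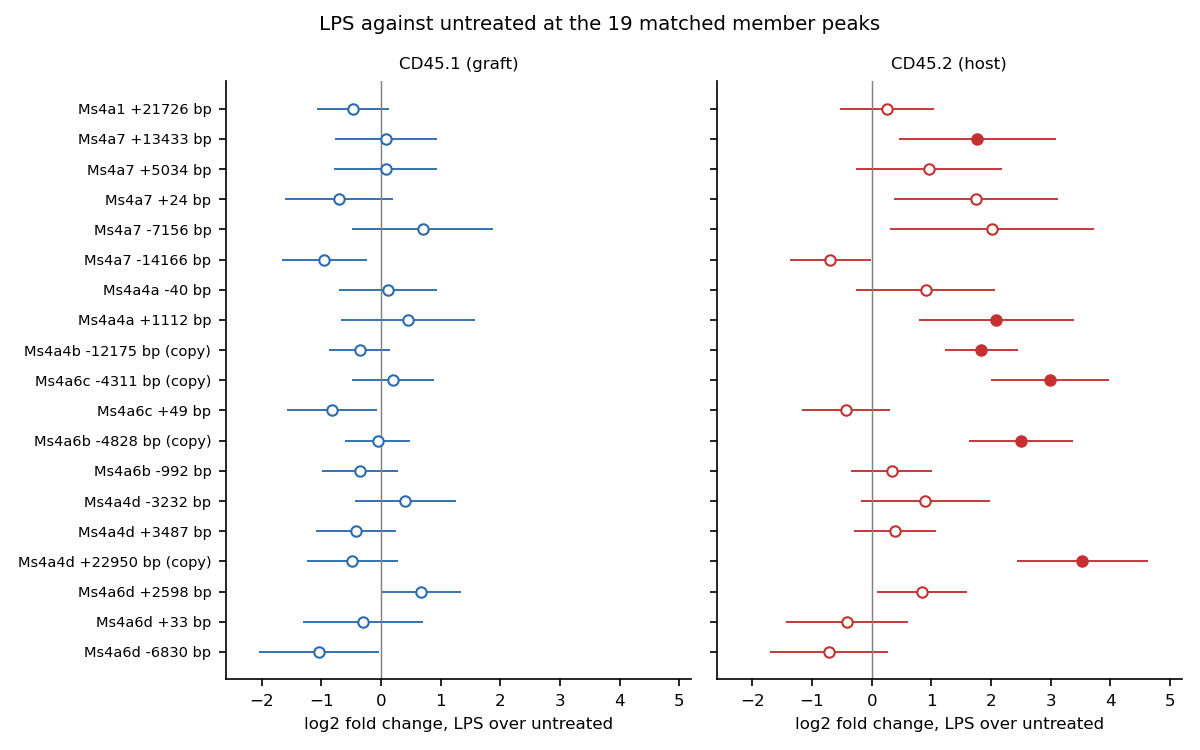
Log2 fold change of LPS over untreated with its 95% interval at each of the 19 matched member peaks, listed in order along the chromosome by gene and distance from its start site, in CD45.1 (left) and CD45.2 (right). Filled points passed an adjusted p of 0.05 and 2-fold; there are none in CD45.1 and 6 in CD45.2, among them the 4 copies.

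Summed over all its peaks, each gene gives 1 value per library. In untreated mice 7 of the 9 members passed a DESeq2 adjusted p of 0.05, all with more tags in CD45.1, where 7.35% of all genes were. The exceptions were Ms4a4c (1.00, 95% interval −0.27 to 2.27) and Ms4a6d (0.37, −0.10 to 0.83). Ms4a4b had 94.5 ± 8.64 against 19.5 ± 5.61 normalized tags (2.35, SE 0.298, adjusted p 2.14e-13). Ms4a4a had 57.0 ± 10.2 against 14.2 ± 2.35 (2.01, SE 0.355) and Ms4a1 had 103 ± 11.5 against 31.6 ± 3.76 (1.73, SE 0.254). The intervals of these 3 overlapped, so that their order is not fixed, and Ms4a7 differed by 1.38 with its repeated-sequence peak and by 3.13 without it. Ms4a6b differed by 1.52 (SE 0.208), Ms4a4d by 1.47 (SE 0.245) and Ms4a6c by 0.98 (SE 0.265, adjusted p 0.00266). After LPS 1 of 8 members passed, where 4.08% of all genes did. This was Ms4a1, with 30.4 ± 7.12 against 13.05 ± 1.33 (1.22, SE 0.414, adjusted p 0.048), which no longer passed without any 1 of the 6 libraries or with the mouse as a block (adjusted p 0.318). The interaction of the sums over matched peaks passed for Ms4a4b (−2.18, 95% interval −2.97 to −1.40, adjusted p 0.00014) and Ms4a4d (−1.39, −2.08 to −0.70, adjusted p 0.0405), where 0.149% of all genes did with this sign. Blocking on the mouse took the Ms4a4d value out of the calls (adjusted p 0.769), and the Ms4a4d sum holds a copy of the duplicated stretch. The only matched peak of Ms4a4b is its copy, so that its sum repeats the result of that peak. For Ms4a4a (−1.31, −2.35 to −0.28) DESeq2 gave no adjusted p.

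**Figure D5:**
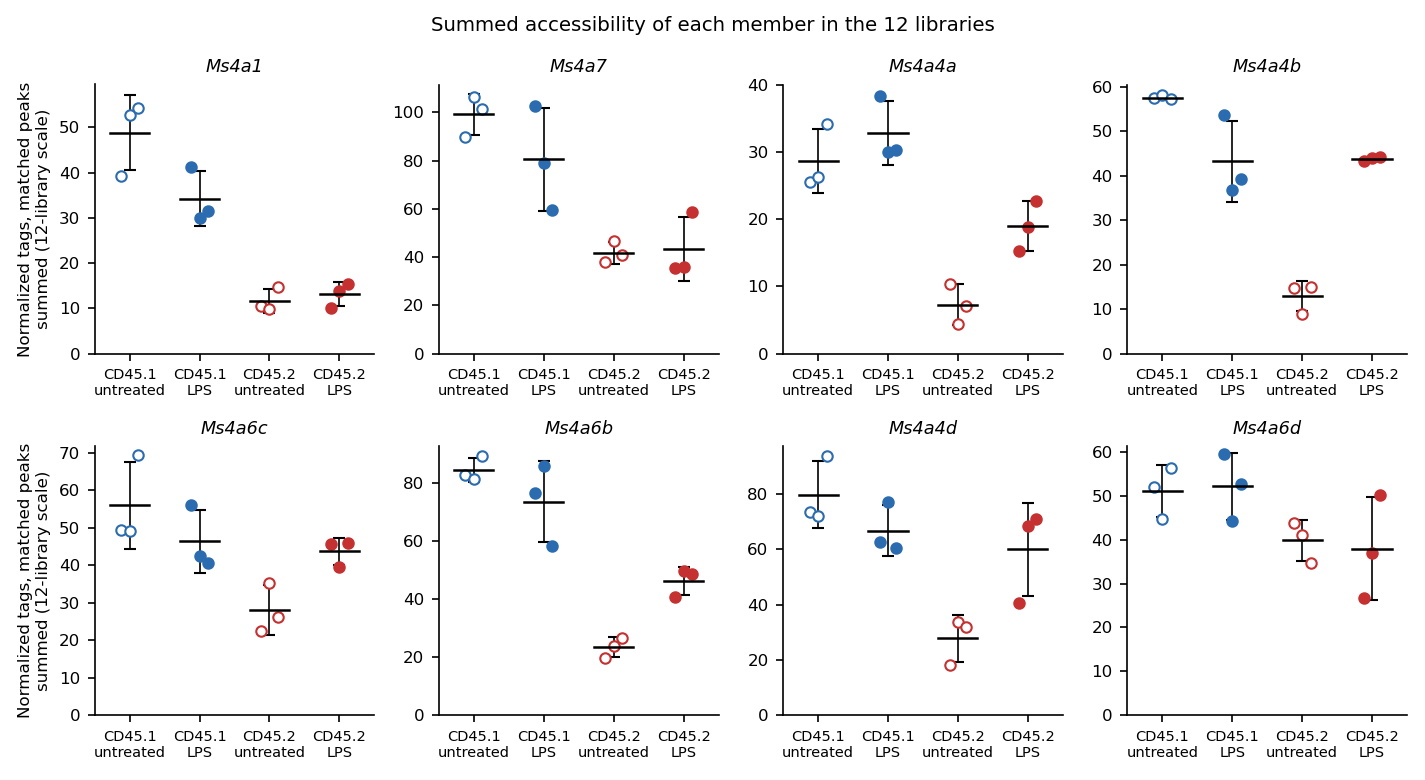
Normalized tags (12-library scale) summed over the matched peaks of each of 8 members in the 4 groups. Ms4a4c had no matched peak, and the only matched peak of Ms4a4b was its copy of the duplicated stretch. Points are libraries (open untreated, filled LPS), black lines the mean and bars the SD of 3 libraries. Ms4a4b in CD45.2 rose with LPS to the level of CD45.1 after LPS, and Ms4a1 in CD45.2 remained below CD45.1.

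The motifs searched in the 200 bases around each peak centre, on both strands, were PU.1 (GAGGAAGT), C/EBP (TTGCNNAA), AP-1 (TGANTCA), IRF (GAAANNGAA), RUNX (TGTGGTT), MEF2 (CTAAAAATA) and NF-kappaB (GGAANTTCC). C/EBP letters were present in the windows of 6 of the 26 untreated member peaks, 4 of them the copies, and of 9.89% of all tested untreated peaks. The others were the windows of the second-intron peak of Ms4a7 and of the peak upstream of Ms4a4d, whose sequences are shown above. PU.1 letters were present in 4 member windows (9.58% of all windows), AP-1 in 2 (8.17%), IRF in 2 (8.39%), among them the Ms4a7 promoter window, and RUNX in 1 (5.67%). Both the C/EBP letters of the Ms4a7 intron and the IRF letters of the Ms4a7 promoter lay past the end of the untreated peak. MEF2 and NF-kappaB letters were in no member window and in 0.512% and 0.901% of all windows. Of the 22 member windows of LPS mice, 7 held C/EBP letters, 4 of them the copies, against 12.3% of all tested LPS peaks. PU.1 letters were in 3 of the 22 (8.97% of all windows), AP-1 in 2 (13.7%), IRF in 3 (7.52%) and RUNX in 1 (5.74%). A match is only a run of letters and says nothing of binding.

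Around the cluster fewer peaks were called. In the 500 kb before the first untreated member peak, 3 of 29 tested peaks were higher in CD45.1, a larger share than the 3.78% of all tested untreated peaks. They were annotated to 1700017D01Rik, Cd6 and Ms4a8a. In the 500 kb after the last member peak, 0 of 20 were higher. Median log2 fold changes before and after the cluster were 0.19 and 0.09, against 2.08 over the members. A pair of peaks inside the cluster that belongs to other genes was not called. Of the 12 other genes of the family, 5 had peaks, and 2 of them were higher in untreated CD45.1, Tmem176b with 277 ± 27.0 against 169 ± 18.6 normalized tags (0.71, SE 0.148) and Ms4a8a with 12.1 ± 6.36 against 0.819 ± 0.832. After LPS it was Tmem176b alone (1.16, SE 0.265, DESeq2 adjusted p 0.00042). Ms4a5 and Ms4a10 passed in neither table, and Tmem176a did not pass untreated and had too few tags to be tested after LPS.

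Across the 12 libraries, the genes whose summed peaks followed Ms4a7 most closely, on log2 tags scaled to the tags in peaks of each library, were 1700025M24Rik (Pearson r 0.97), Lyrm7os (0.96) and Ppef2 (0.96) out of 15385 genes, as a description over libraries that share animals, treatments and tables. Among the members, Ms4a1 (0.96, place 4) and Ms4a6b (0.92, place 24) were nearest, and the others ran from 0.54 for Ms4a6d to 0.79 for Ms4a4a. The Ms4a7 sum used here includes its peak in repeated sequence, and correlations without that peak were not computed.

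Markers of other cells were read in the same libraries. Of 9 genes of border-associated macrophages, which express Ms4a7, 8 had peaks and 4 were higher in untreated CD45.1, namely Mrc1, Pf4, F13a1 and Clec4n. The summed tags of the 8 genes with a peak were 960 to 1069 in CD45.1 and 636 to 727 in CD45.2, and Lyve1 had no peak in either table. After LPS 3 of 8 were higher in CD45.1 (Mrc1, Cd163 and Clec4n), with sums of 628 to 679 against 435 to 488. The sort took CD45lo cells, and the part of border-associated macrophages in the member values was not tested. Of the monocyte markers 0 were higher in either population in either table, and their sums overlapped (216 to 250 against 225 to 245 untreated, 110 to 121 against 112 to 124 after LPS). B-cell sums after LPS were 51.7 to 60.6 in CD45.1 and 62.0 to 96.4 in CD45.2, with no gene called. T-cell sums overlapped in both tables (281 to 289 against 279 to 313 untreated, 103 to 156 against 117 to 131 after LPS), with Cd3d higher in CD45.1 and Lck in CD45.2 untreated, and Cd3e and Cd3g had no peak. Neutrophil sums overlapped untreated (107 to 140.4 against 118 to 134), with S100a9 higher in CD45.2, and were 67.5 to 80.2 against 81.0 to 101 after LPS, with no gene called. Of the 4 mast-cell markers only Cpa3 had a peak, with 32.7 to 41.7 against 26.7 to 32.6 untreated and 9.42 to 13.9 against 4.46 to 10.9 after LPS, called in neither table.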

How the data were processed

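ATAC-seq libraries of CD45.1 and CD45.2 cells from 6 chimeric mice were analysed, in 4 groups of 3 taken from the labels. Per the labels, the authors used bcl2fastq 2.17.1.14, Bowtie2, Picard 1.108 and HOMER with build mm9. The deposited merged-peak tables give estimated counts, namely HOMER tags per peak, not normalized, of which 44.0% to 49.8% are not whole per library, with a fragment length of 300 per the file headers. Per-library peak lists were merged by the authors separately for untreated and LPS mice, and gene names are HOMER's nearest start sites. The aligner settings, the treatment of reads with several positions and the HOMER version are not given in the sources used here.

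Peaks were kept if any library had a count over 10, counts were rounded, and CD45.1 was compared with CD45.2 by DESeq2 1.42.0 in R 4.3.3, following the methods of the study, with edgeR 4.0.16 as an alternative. Tests covered the whole table and p-values were adjusted over it. Limits were an adjusted p of 0.01 and 4-fold for peaks, 0.05 for gene sums and interactions, and 0.05 and 2-fold for LPS against untreated. Peaks of both tables were matched by 50% reciprocal overlap for a model with population, treatment and their interaction. Intervals are 95% and cover the spread between libraries. PCR copies may remain among the tags, so counts are not independent molecules. The fits were tested on simulated data.

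CD45.1 and CD45.2 cells with the same number came from the same animal according to the series' design text. Deviations from the group means correlated between cells of a mouse by 0.08, 0.08 and 0.09 untreated and by −0.07, 0.06 and 0.15 after LPS, across peaks. Between cells of different mice they ran from −0.10 to 0.001 untreated and from −0.16 to 0.12 after LPS. The values within and between mice thus overlapped after LPS. The fit with the mouse as a block was an alternative, as were scaling to total tags, other filters and leaving out each library.

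Genome sequence and GENCODE vM1 genes were of the same build as mm9 (NCBIM37), and no peak ran past a chromosome end. GENCODE vM1 names 8 of the 9 members, all but Ms4a4a. Similar sequences were sought with BLAST 2.17.0. All member peaks are accounted for, and values in every library are given for called peaks, promoter peaks and the strongest peak of each member. Named outside the cluster are other family genes with a peak, marker genes, genes called within 500 kb and the 3 genes most correlated with Ms4a7. The members and lists were chosen with earlier results of these data known. Single results of some marker genes are not reported here.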

Additional observations from a re-analysis of the deposited data

Results flagged for a closer look

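The difference between CD45.1 and CD45.2 depended on LPS at 4 member peaks, by the interaction test of the 12-library model (DESeq2). The interaction was −2.20 at the Ms4a4b copy of the duplicated stretch, −2.79 at the Ms4a6c copy, −2.57 at the Ms4a6b copy and −4.00 at the Ms4a4d copy. The same test called the summed matched peaks of Ms4a4d (−1.39), which include a copy, and of Ms4a4b (−2.18). The only matched peak of Ms4a4b is its copy, so that its sum repeats the result of that peak. Because the copies are near identical, the part of tags that could belong to another copy in each single value was not tested.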

How the results depend on the processing

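The count of 11 untreated peaks called higher in CD45.1 fell to 5 with a mean count of at least 20, and ranged from 6 (without CD45.2 of mouse 5) to 12 (without CD45.2 of mouse 4) when 1 library was left out. Without CD45.2 of mouse 5, calls were lost at the Ms4a4b copy, the Ms4a1 peak, the second intron of Ms4a7, the Ms4a4a promoter and the first intron of Ms4a4b. edgeR called 13. The 4 interactions became 2 with scaling to total tags, an alternative chosen after seeing the data, and 2 to 4 when 1 library was left out, with 2 under omission of CD45.2 of mouse 6. In both cases DESeq2 gave no adjusted p for the Ms4a6c and Ms4a4d copies, whose values were −2.66 and −3.93 with total tags and −2.83 and −4.73 without that library. The 6 peaks higher after LPS in CD45.2 became 4 or 5 without any 1 library. The 0 peaks lower after LPS in CD45.1 became 1 without CD45.1 of mouse 6. The counts of 0 peaks called between the populations after LPS stayed at 0 under all alternatives run. With the mouse as a block, 10 untreated peaks and 3 interactions were called, and the summed copies had an interaction of −2.64 (adjusted p 3.76e-09). The sum of Ms4a7 in untreated mice reversed to −0.051 with its strongest peak alone, which lies in repeated sequence. Ms4a4d's summed interaction missed the threshold with edgeR (adjusted p 0.0739). Scaling to total tags moved the median over all matched peaks to −0.15 for LPS against untreated in CD45.2 and to 0.08 for the interaction. Of the alternatives for single peaks, gene sums and the summed copies, 462 kept their side of the threshold, 39 lost it and 2 gained it. The edgeR, block and leave-one-out fits of summed interactions, the summed copies and Ms4a7 without its repeated-sequence peak were also chosen after seeing the data. Few tags per peak, mostly under 100 per library, limit the LPS comparison, in which only 4 of 22 member peaks reached a mean of 20.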
